A study of Homo sapiens with 6 samples.

Results

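The genes described here are 39 genes of DNA replication, the passage from G1 into S phase, and mitosis. They were taken from a fixed list of symbols, and 38 of them were measured among the 18404 genes of the array; CENPA was not analysed here. They fall into 15 replication and G1/S genes and 24 mitotic genes, of which 23 were measured. The list was compared between H69M and H69, both labelled as small cell lung cancer cell lines, with 3 arrays of each line. H69 is an established human line that grows as floating aggregates, and the labels neither name a treatment nor say how H69M was obtained. Expression is given as log2 values per probe set, normalized across the arrays by the authors, so that a difference of 1 is a doubling. Genes are called higher or lower in H69M at a Benjamini-Hochberg adjusted p below 0.05 in limma, a linear model with pooled variance fitted to all 18404 genes.

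A dividing cell licenses its origins of replication in G1, when the origin recognition complex, CDC6 and CDT1 load the ring of MCM2 to MCM7 onto DNA. Cyclin E with its kinase and the E2F transcription factors then bring the cell into S phase, where CDC45 and the GINS proteins turn the MCM ring into the moving helicase. In G2 and mitosis another set of genes, driven by MYBL2, FOXM1 and their partners, supplies cyclin B with CDK1, the PLK1 and Aurora kinases, the spindle motors and the checkpoint that restrains CDC20. Small cell lung cancer usually has lost RB1, the brake on E2F, and its cells divide fast, so both sets are abundant in it.

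The labelled cell type was checked against marker genes. Of 7 neuroendocrine markers measured, 0 were higher and 6 lower in H69M, and their summed level on the linear scale was 3555 to 4462 in H69M arrays and 6882 to 7001 in H69 arrays. Of 8 fibroblast markers, 8 were higher in H69M, with sums of 7738 to 9961 in H69M arrays and 757 to 775 in H69 arrays. Of 6 leukocyte markers 0 were higher and 3 lower, with sums of 211 to 221 in H69M arrays and 234 to 244 in H69 arrays. Of 5 endothelial markers TEK and KDR were higher (sums of 214 to 494 in H69M arrays and 134 to 140 in H69 arrays), while PECAM1, CDH5 and VWF did not pass. TEK, with 8.44, 8.58 and 6.64 in H69M and 4.65, 4.76 and 4.41 in H69, accounts for most of the difference between those sums. Of 6 epithelial markers 2 were higher (KRT8 and KRT18) and 3 lower (EPCAM, KRT19 and CLDN4), while CDH1 did not pass. Their sums were 8412 to 9507 in H69M arrays and 5601 to 5944 in H69 arrays. KRT8 (mean 12.13 in H69M and 11.21 in H69) and KRT18 (11.46 in H69M and 9.46 in H69) account for the higher sums in H69M. The values carry no detection call, so no marker can be called absent, and the part of these markers in the results below was not tested. Across genes, Pearson's r was at least 0.995 between arrays of 1 line and at most 0.950 between H69M and H69 arrays.

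Replication and G1/S genes were called lower more often than all genes were, and mitotic genes less often. Of the 38 members 17 were called, against 44.2% of all genes, and H69M and H69 arrays were fully separate for 23, against 55.8% of all genes. Of the 15 replication and G1/S genes, 10 fell and 0 rose in H69M, against 23.2% of all genes lower and 21% higher. Of the 23 mitotic genes, 6 rose and 1 fell, so that the share higher (26.1%) was near the background of all genes and the share lower (4.35%) was below it. The median log2 fold change was -0.26 for replication and G1/S genes and 0.026 for mitotic genes, against -0.041 for all genes. With the arrays centred on their medians, the median was -0.064 for mitotic genes and -0.13 for all genes. Quantile normalization applied again gave -0.0072 for mitotic genes and -0.082 for all genes. Among the 8126 genes left by a filter at the lowest mean level of any member, 30.8% were lower and 26% higher.

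The changes were small. Only CDC20 among the genes that rose, and CCNE1, CCNE2 and MCM3 among those that fell, passed 0.5 on the log2 scale, whereas 20.3% of all genes passed both that size and the test. With the arrays centred on their medians, 5 members were higher and 16 lower, against 6 and 11 on the values as deposited, and the median of all genes moved to -0.13; among the mitotic genes 5 were then higher and 3 lower. In bulk RNA, fewer cells in a phase of the cycle and less RNA per cell cannot be told apart.

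**Figure D1:**
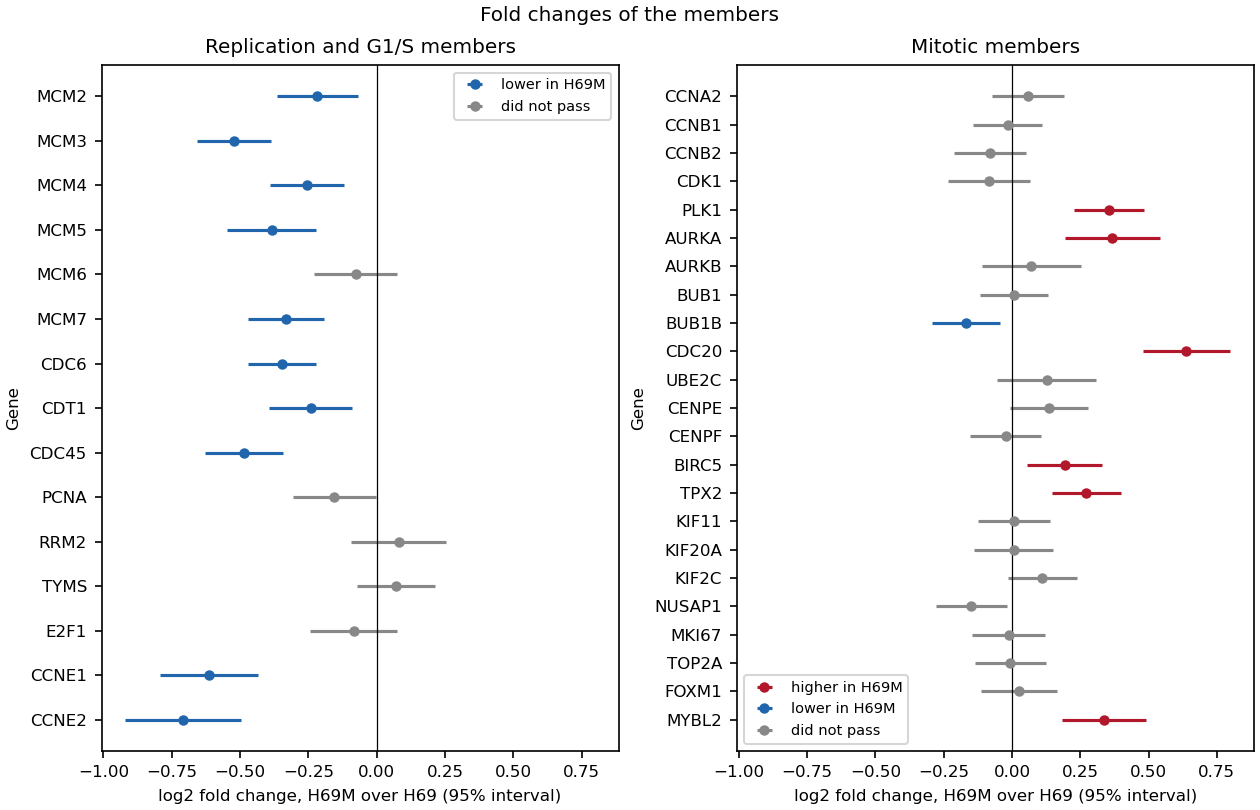
Log2 fold change of each member, H69M over H69, with its 95% interval from limma (grey, did not pass). Of the 15 replication and G1/S genes (left) 10 passed below 0, and of the 23 mitotic genes (right) 6 passed above 0 and BUB1B below it.

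Licensing and helicase genes made up most of the falls: 8 of 9 were lower in H69M (88.9%, against 23.2% of all genes). Their median log2 fold change was -0.33. MCM3, a subunit of the hexameric MCM helicase (probe set 8127031), had log2 levels of 10.21, 10.17 and 10.10 in the H69M arrays, against 10.66, 10.71 and 10.67 in the H69 arrays. All H69M arrays lay below all H69 arrays, and the level in H69M was 30.4% lower (log2 fold change -0.52 ± 0.058, SE, n = 3 each, limma adjusted p = 0.000202). CDC45, the helicase partner loaded at the start of S phase, had levels of 9.61, 9.58 and 9.72 in H69M, against 10.13, 10.15 and 10.09 in H69. It was 28.6% lower in H69M (-0.49 ± 0.061, SE, limma adjusted p = 0.000387), again with no overlap. MCM5 had levels of 9.36, 9.21 and 9.20 in H69M and 9.61, 9.73 and 9.59 in H69 (log2 fold change -0.38 ± 0.070, SE). MCM7 stood at 11.01, 10.91 and 10.92 in H69M and at 11.28, 11.31 and 11.23 in H69 (-0.33 ± 0.060, SE). Both genes encode subunits of the same ring as MCM3, and neither overlapped between the lines.

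MCM4 was 16.2% lower in H69M, with 10.31, 10.29 and 10.32 there and 10.62, 10.57 and 10.49 in H69. MCM2 was the weakest of the MCM genes that passed, with 8.86, 8.70 and 8.80 in H69M and 9.01, 9.04 and 8.96 in H69 (-0.22 ± 0.063, SE, limma adjusted p = 0.0248). Leaving out H69M replicate 2 (0.0842) or replicate 3 (0.0504) of that line ended the call, as did leaving out replicate 1 (0.0753) or replicate 2 (0.0831) of H69. MCM6, the remaining subunit of the ring, had 8.73, 8.63 and 8.59 in H69M and 8.76, 8.77 and 8.66 in H69. Its arrays overlapped, and the 95% interval of the difference ran from -0.23 to 0.075. A fall of the size of MCM3 lies outside that interval, but one of the size of MCM2 (-0.22) lies inside it. MCM6 passed as lower after median centring (limma adjusted p = 0.0393).

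The loading factors CDC6 and CDT1 moved the same way as the ring. Of 6 origin recognition complex genes, which are outside the members, 1 fell (16.7%) and 0 rose, against 23.2% and 21% of all genes. CDC6, the ATPase that loads MCM rings onto origins, had 9.70, 9.67 and 9.74 in H69M and 10.07, 10.03 and 10.06 in H69, a fall of 21.4% (-0.35 ± 0.054, SE, limma adjusted p = 0.00123). CDT1, which brings the ring to CDC6, had 7.42, 7.30 and 7.47 in H69M and 7.60, 7.64 and 7.68 in H69 (-0.24 ± 0.065, SE, limma adjusted p = 0.0178). Leaving out H69M replicate 2 (0.0598), or replicate 2 (0.0518) or replicate 3 (0.0575) of H69, ended the call of CDT1.

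Both cyclin E genes fell, and by more than any other member. CCNE2 had 10.71, 10.57 and 10.37 in H69M, against 11.20, 11.32 and 11.25 in H69, which made it 38.8% lower in H69M (-0.71 ± 0.091, SE, limma adjusted p = 0.000435). CCNE1 had 8.27, 8.14 and 8.23 in H69M, against 8.76, 8.97 and 8.76 in H69, a fall of 34.6% (-0.61 ± 0.077, SE, limma adjusted p = 0.000384). The H69M arrays of both genes lay wholly below those of H69. E2F1, a transcription factor of the G1/S genes, had 9.44, 9.36 and 9.46 in H69M and 9.53, 9.58 and 9.40 in H69. These overlapped, and the difference did not pass (95% interval -0.24 to 0.073), except after median centring (limma adjusted p = 0.0399).

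Genes of the sliding clamp and of nucleotide supply did not pass. PCNA, the clamp that holds polymerases on DNA, had 10.47, 10.41 and 10.36 in H69M, all below the 10.53, 10.66 and 10.51 of H69 (limma adjusted p = 0.0942). It passed after median centring of the arrays (0.00957), with quantile normalization applied again (0.0359), with eBayes trend (0.0378) and with the genes below the median level left out (0.0468). RRM2, the small subunit of ribonucleotide reductase, had 8.73, 8.81 and 8.71 in H69M and 8.56, 8.65 and 8.79 in H69, with a 95% interval of -0.093 to 0.25. TYMS, thymidylate synthase, had 11.19, 11.27 and 11.33 in H69M and 11.20, 11.22 and 11.15 in H69, with an interval of -0.072 to 0.21. Both intervals exclude a fall as large as that of MCM3.

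**Figure D2:**
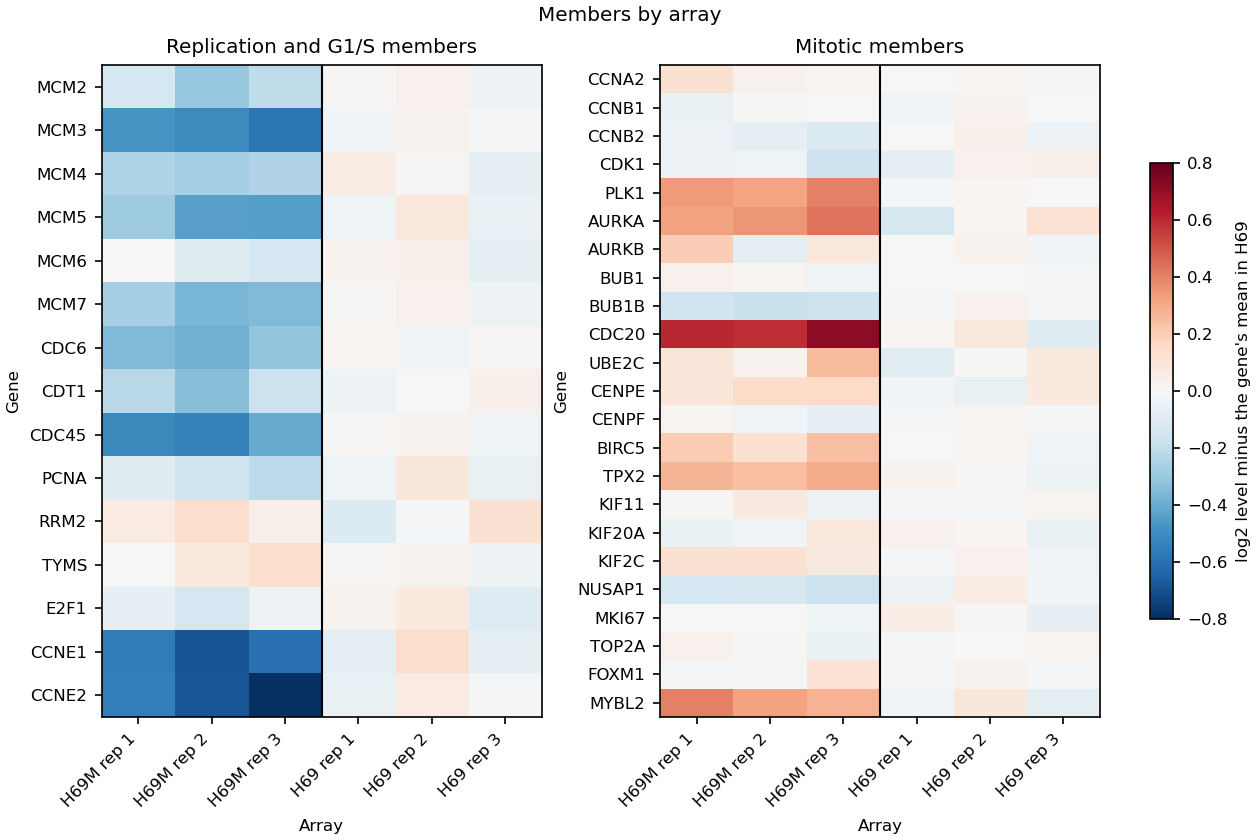
Level of each member on each array as the log2 value minus the gene's mean in H69, H69M arrays left and H69 arrays right of the black line (blue, lower; red, higher). MCM3, CDC45, CCNE1 and CCNE2 are blue on all 3 H69M arrays, and CDC20, AURKA, PLK1 and MYBL2 are red on all 3.

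Among the mitotic genes CDC20 stood out. CDC20, which activates the anaphase-promoting complex, had 10.67, 10.66 and 10.78 in H69M, against 10.08, 10.15 and 9.97 in H69. It was 1.56-fold higher in H69M (log2 fold change 0.64 ± 0.069, SE, n = 3 each, limma adjusted p = 0.000171), and the next largest mitotic change, that of AURKA, was 1.29-fold. BUB1B, a checkpoint kinase that binds and inhibits CDC20, was the only mitotic member to fall. It had 10.36, 10.34 and 10.35 in H69M and 10.50, 10.55 and 10.50 in H69 (-0.17 ± 0.054, SE, limma adjusted p = 0.0355). The arrays did not overlap, but the call was lost when any single array was left out (limma adjusted p between 0.0518 and 0.114, the lowest without H69M replicate 1 and the highest without H69 replicate 2). BUB1, its paralog at the kinetochore, had a 95% interval of -0.12 to 0.13. UBE2C, the E2 enzyme of the anaphase-promoting complex, had 9.17, 9.10 and 9.32 in H69M and 8.98, 9.08 and 9.15 in H69, which overlapped.

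Of the 7 cyclin and kinase genes, AURKA and PLK1 rose (28.6%) and the others did not pass. That share is near the 21% of all genes and the 26% of genes left by the filter on level. AURKA, the centrosomal Aurora kinase, had 9.42, 9.45 and 9.53 in H69M and 8.97, 9.11 and 9.21 in H69 (0.37 ± 0.075, SE, limma adjusted p = 0.00489). PLK1, the polo kinase that AURKA activates, had 11.97, 11.94 and 12.03 in H69M and 11.61, 11.64 and 11.63 in H69 (0.35 ± 0.055, SE, limma adjusted p = 0.00122). Every H69M array of these kinases was above every H69 array. AURKB, the kinase of the chromosomal passenger complex, had 9.76, 9.49 and 9.65 in H69M, a wide spread that held the 9.56, 9.59 and 9.54 of H69.

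The cyclin B and CDK1 genes differed little. CCNB1 had 9.98, 10.04 and 10.03 in H69M and 10.01, 10.06 and 10.03 in H69, with a 95% interval of -0.14 to 0.11. CDK1, the kinase that cyclin B activates, had an interval of -0.23 to 0.066. CCNB2 had one of -0.21 to 0.052, and passed as lower with the arrays centred on their medians (limma adjusted p = 0.0244). CCNA2, the cyclin of S phase and G2, had one of -0.072 to 0.19. None of the 4 intervals reaches the fall of CCNE1 or the rise of CDC20.

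TPX2, which activates AURKA on spindle microtubules, rose as well. Its levels were 11.17, 11.14 and 11.20 in H69M and 10.93, 10.91 and 10.86 in H69 (0.27 ± 0.055, SE, limma adjusted p = 0.00442). BIRC5, the passenger complex subunit survivin, had 9.14, 9.06 and 9.18 in H69M and 8.94, 8.96 and 8.91 in H69 (0.19 ± 0.059, SE, limma adjusted p = 0.0298). Its arrays did not overlap and its dimmer probe set gave 0.22, but the call was lost with the arrays centred on their medians (0.141). It was also lost when an array other than H69M replicate 2 was left out (0.0611 without H69M replicate 1 and 0.0907 without replicate 3 of that line; 0.0785, 0.0648 and 0.0805 without replicates 1, 2 and 3 of H69). MYBL2, the transcription factor B-MYB, had 10.33, 10.25 and 10.21 in H69M and 9.91, 10.02 and 9.86 in H69 (0.34 ± 0.066, SE, limma adjusted p = 0.0041). FOXM1, the forkhead factor that acts with it on G2/M genes, had a 95% interval of -0.11 to 0.17.

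The proliferation marker MKI67, which coats mitotic chromosomes, had 10.55, 10.55 and 10.52 in H69M and 10.61, 10.56 and 10.49 in H69. TOP2A, the topoisomerase that untangles sister chromatids, had 11.26, 11.23 and 11.17 in H69M and 11.21, 11.22 and 11.24 in H69. The arrays overlapped for both, and the 95% intervals were -0.15 to 0.12 for MKI67 and -0.14 to 0.12 for TOP2A. The kinetochore genes CENPE (a motor, limma adjusted p = 0.111) and CENPF (0.773) and the motor genes KIF11 (0.924), KIF20A (0.951) and KIF2C (0.138) did not pass. H69M was above H69 on all arrays for CENPE and KIF2C. NUSAP1, a microtubule bundling protein, had 11.40, 11.41 and 11.37 in H69M, below the 11.50, 11.60 and 11.52 of H69 (limma adjusted p = 0.0669). It passed with eBayes trend (0.0127), with the arrays centred (0.0071) and with the genes below the 25th percentile (0.0434) or below the median (0.028) left out. Over the 16 mitotic genes that did not pass, no 95% interval went below -0.28 or above 0.31.

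The 2 groups of genes stood apart on each of the 3 H69M arrays. Averaged over its members as deviations from each gene's H69 mean, the replication and G1/S genes stood at -0.25, -0.31 and -0.29 (log2) on H69M replicates 1, 2 and 3, and between -0.028 and 0.042 on the H69 arrays. The mitotic genes stood at 0.10, 0.079 and 0.10 on those H69M arrays, and between -0.014 and 0.021 on the H69 arrays. The gap, mitotic minus replication, was 0.38 ± 0.024 in H69M and lay between -0.021 and 0.021 on the H69 arrays, whose mean is 0 by construction (log2, SD, n = 3). That gap is one of list means, and the difference between the group medians of the fitted log2 fold changes was smaller, 0.28. On each of the H69M arrays 13 of the 15 replication and G1/S genes were below their H69 mean, against 7, 3 and 12 on H69 replicates 1, 2 and 3. Mitotic genes were less uniform. Of 23, 15, 14 and 13 were above their H69 mean on H69M replicates 1, 2 and 3. On H69 replicates 1, 2 and 3 these counts were 8, 20 and 7. The gap compares sets within an array, so an offset common to all genes of an array cancels in it. The lists were chosen with earlier results of these data known, and the gap carries no test.

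**Figure D3:**
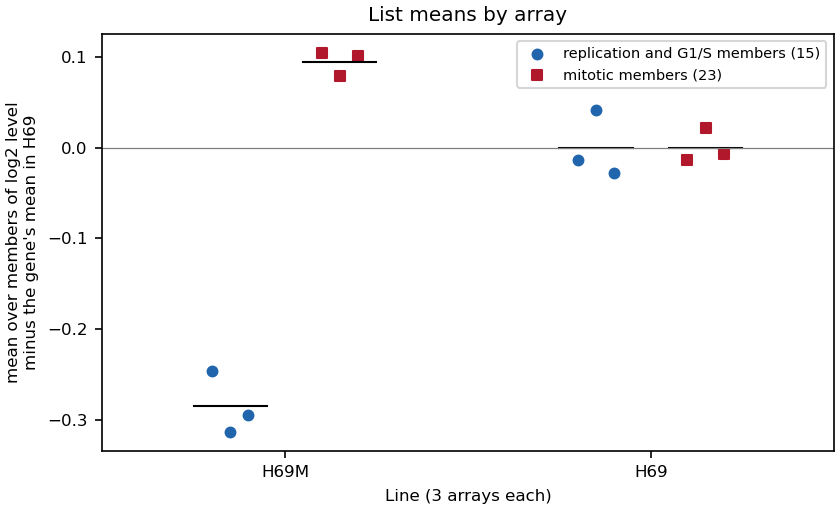
Mean over the members of the log2 level minus the gene's mean in H69, 1 point an array, for the replication and G1/S genes (blue circles) and the mitotic genes (red squares), H69M left and H69 right, with means as black bars. The blue H69M points lie between -0.31 and -0.25 and the red ones between 0.079 and 0.10.

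Promoter sequence was compared because E2F sites are known from replication genes, and the cell cycle homology region (CHR), often paired with CCAAT boxes, from mitotic genes. RefSeq promoters (GRCh38.p14, 250 bases before to 50 after the start) were matched for 30 of the 38 measured members. The letters searched on both strands were TTTGAA for the CHR, CCAAT for the CCAAT box, and TTTCCCGC, TTTCGCGC, TTTGCCGC or TTTGGCGC for E2F. A gene with several promoters counts if any of them holds the letters. The E2F letters were in 9 of 12 replication and G1/S genes (75%) and in 2 of 18 mitotic genes (11.1%), against 3.99% of the 27305 genes in the table. The CHR letters were in 0 of 12 and in 10 of 18 (55.6%), against 18.2% of all genes. CCAAT was in 8 of 12 and 14 of 18, against 39.7%.

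Promoters were matched for 7 of the 10 replication and G1/S genes that fell and for 3 of the 6 mitotic genes that rose. Among matched genes, E2F letters were in 5 of 7 replication and G1/S genes that fell and in 4 of 5 that did not pass. CHR letters were in 2 of 3 matched mitotic genes that rose, in the 1 that fell and in 7 of 14 that did not pass. These are matches of letters and not measured sites. Shown here are the 250 bases before the start of 2 mitotic genes that rose and 2 replication genes that fell, picked as the largest changes with such letters in that window. Capitals mark CHR and CCAAT letters in CDC20 and PLK1, and E2F and CCAAT letters in MCM3 and MCM7, on either strand. CDC20 is at chr1:43358731-43358980 (plus strand), PLK1 at chr16:23678639-23678888 (plus strand), MCM3 at chr6:52284743-52284992 (minus strand) and MCM7 at chr7:100101398-100101647 (minus strand).
CDC20: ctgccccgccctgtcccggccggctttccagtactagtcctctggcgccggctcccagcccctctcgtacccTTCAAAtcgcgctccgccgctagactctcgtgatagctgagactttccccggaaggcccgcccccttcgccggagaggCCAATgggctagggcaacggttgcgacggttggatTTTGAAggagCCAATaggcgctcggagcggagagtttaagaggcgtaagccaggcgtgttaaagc
PLK1: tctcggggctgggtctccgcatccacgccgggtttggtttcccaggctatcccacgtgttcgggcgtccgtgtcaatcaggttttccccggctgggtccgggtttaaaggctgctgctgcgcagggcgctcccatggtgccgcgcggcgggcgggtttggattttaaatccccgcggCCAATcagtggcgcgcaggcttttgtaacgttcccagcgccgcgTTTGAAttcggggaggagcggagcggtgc
MCM3: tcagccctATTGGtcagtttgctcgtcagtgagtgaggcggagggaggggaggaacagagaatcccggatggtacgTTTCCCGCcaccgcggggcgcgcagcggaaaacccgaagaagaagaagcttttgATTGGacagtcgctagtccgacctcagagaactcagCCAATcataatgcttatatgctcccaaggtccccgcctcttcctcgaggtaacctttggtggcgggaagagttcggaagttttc
MCM7: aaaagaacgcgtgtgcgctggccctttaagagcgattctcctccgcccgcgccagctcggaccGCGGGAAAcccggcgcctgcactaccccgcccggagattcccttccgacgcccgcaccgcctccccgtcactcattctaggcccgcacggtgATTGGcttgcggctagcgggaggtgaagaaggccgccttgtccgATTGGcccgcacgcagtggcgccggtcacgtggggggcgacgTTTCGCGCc
PLK1 carries its CHR letters 29 bases before the start with a CCAAT upstream of them, and CDC20 has CHR letters between its 2 CCAAT boxes. MCM3 and MCM7 hold E2F letters far upstream, 174 and 187 bases before the start. Each has another match beside the start: that of MCM7 ends 1 base inside the printed window, and that of MCM3 crosses the start and is not capitalised.

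Of 29 polymerase, clamp loader and fork genes outside the members, 17 fell (58.6%) and 3 rose (10.3%), against 23.2% and 21% of all genes (median log2 fold change -0.23). The fall was largest in POLE, the catalytic subunit of the leading strand polymerase, which had 9.47, 9.37 and 9.31 in H69M and 9.95, 10.04 and 9.96 in H69 (-0.60 ± 0.065, SE, limma adjusted p = 0.000171). Against it, POLE4, a small accessory subunit of the same enzyme, rose by 1.03, with 7.47, 8.15 and 8.18 in H69M and 6.81, 6.85 and 7.06 in H69. POLD4, the small subunit of polymerase delta, rose by 0.80, with no overlap between lines. Of the 24 origin and helicase genes outside the members, 9 fell (37.5%) and 2 rose (8.33%), with a median of -0.12. Among genes left by the filter on level, 30.8% were lower and 26% higher. MCM9, an MCM paralog of DNA repair, fell by 0.58 and TIMELESS, a fork protection protein, by 0.51, while GINS4, a subunit of the active helicase, rose by 0.57. Of 19 nucleotide synthesis genes 4 rose and 4 fell, both near the background. TK1, thymidine kinase of the salvage route, had 9.40, 9.54 and 9.50 in H69M and 8.36, 8.30 and 8.26 in H69, which made it 2.25-fold higher (1.17 ± 0.064, SE, limma adjusted p = 4.3e-06). DCTD, deoxycytidylate deaminase, rose by 0.38, and DUT, which removes dUTP, fell by 0.37.

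Of 19 regulators of G1/S, 6 were higher (31.6%) and 5 lower (26.3%), against 21% and 23.2% of all genes. CCNA1, a cyclin A best known from the testis, had 6.76, 6.63 and 7.02 in H69M, against 9.49, 9.60 and 9.35 in H69 (-2.68 ± 0.11, SE, limma adjusted p = 1.1e-06). It had the largest fall of the cell cycle genes listed. TFDP2, a dimer partner of E2F, rose by 0.67 and E2F7, a repressor of E2F targets, fell by 0.59. CDKN1A, which encodes the CDK inhibitor p21, had a mean of 8.10 in H69M and 9.47 in H69, and CDKN1B, which encodes p27, one of 8.63 in H69M and 9.17 in H69. Both falls passed (limma adjusted p = 1.9e-06 for CDKN1A and 0.000152 for CDKN1B). The mean of MYC was 8.48 in H69M and 6.37 in H69, and that of MYCN was 11.60 in H69M and 12.53 in H69. RB1 had 8.67 in H69M and 8.68 in H69 and did not pass.

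Of 127 genes of the mitotic machinery outside the members, in 5 lists, 22 rose (17.3%) and 33 fell (26.0%), shares near the 21% and 23.2% of all genes. Of 37 kinetochore and checkpoint genes 13 were lower (35.1%) and 5 higher (13.5%), against 23.2% and 21% of all genes. The lower share is nearer the 30.8% of genes left by the filter on level. The largest falls were those of the centromere genes CENPP (-0.82), CENPM (-0.78) and CENPW (-0.54), and of 13 CENP genes outside the members 7 fell (53.8%) and 2 rose (15.4%). Of 22 cohesin, condensin and separase genes 11 fell (50%) and 1 rose (4.55%), led by SMC2, a core condensin ATPase, which had 9.44, 9.47 and 9.41 in H69M and 10.10, 10.10 and 10.12 in H69. The condensin II genes NCAPH2 (-0.49) and NCAPG2 (-0.38) fell too.

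Of 29 spindle and cytokinesis genes 8 were higher (27.6%) and 2 lower (6.90%), against 21% and 23.2% of all genes; the higher share is near the 26% of genes left by the filter on level. CEP55, which organises the final cut between daughter cells, had 9.50, 9.54 and 9.65 in H69M and 8.92, 8.88 and 8.86 in H69. ANLN, a scaffold of the contractile ring, rose by 0.55. PLK2, a polo kinase that acts at centrioles and is also a stress response gene, rose by 2.72, to 10.95, 11.32 and 10.82 in H69M, against 8.34, 8.34 and 8.24 in H69. Among 23 G2/M regulators 4 rose and 4 fell (17.4% each), with CDK7 at 0.49, BORA, an activator of PLK1 signalling, at 0.36 and WEE1, the kinase that inhibits CDK1, at -0.37. Of 16 genes of the anaphase-promoting complex 4 rose (25%) and 3 fell (18.8%), near the shares of all genes. CDC26 rose by 0.57, CDC23 by 0.29 and ANAPC13 by 0.28; the call of ANAPC13 was lost without H69 replicate 2 (limma adjusted p = 0.0556) and with the arrays centred (0.0623).

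**Figure D4:**
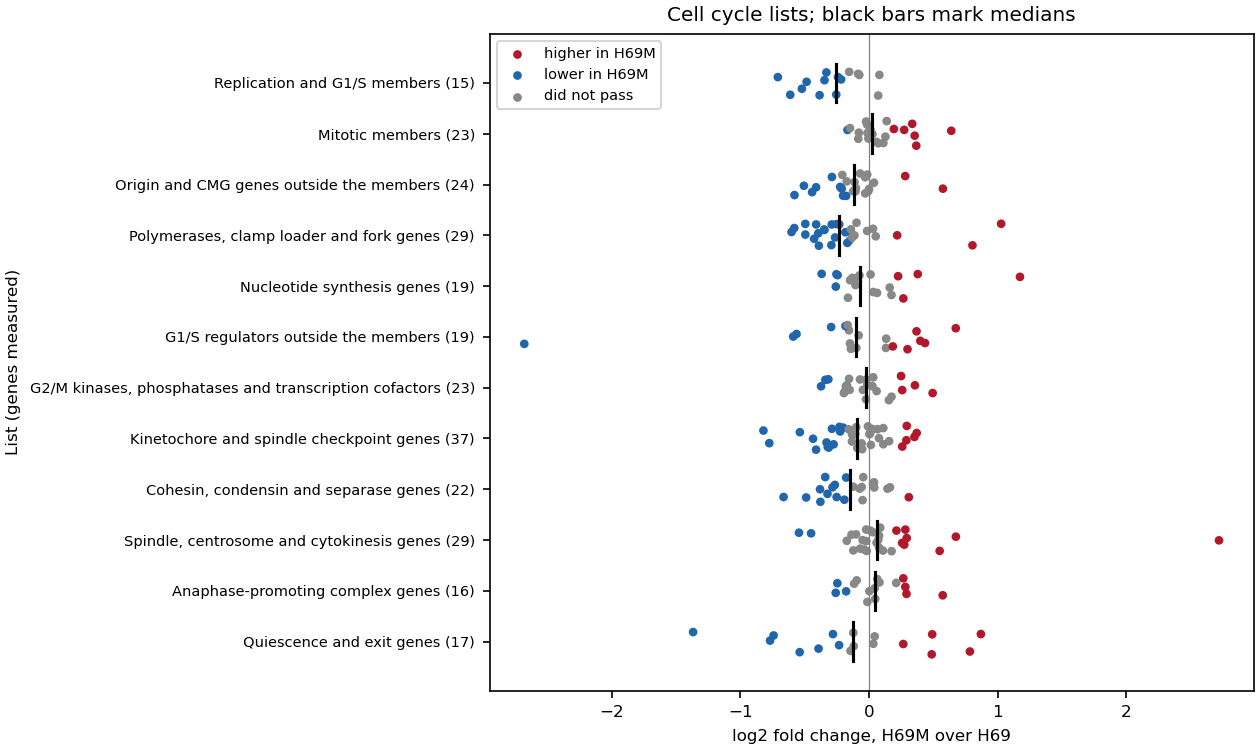
Log2 fold change, H69M over H69, of every measured gene of the 2 groups of members and of 10 other cell cycle lists, 1 point a gene, with list medians as black bars. The medians of replication and G1/S members (-0.26) and of polymerase and fork genes (-0.23) lie farthest below 0, and CCNA1 at -2.68 and PLK2 at 2.72 are the outermost points.

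The members were also set against their neighbours on the chromosome, since whole segments can differ between lines. This comparison was added after the members' values were seen. For each member the median log2 fold change was taken over the 10 measured protein-coding genes on each side in the GRCh38.p14 gene order. The 10 replication and G1/S genes that fell lie on 8 chromosomes, and their neighbour medians ran from -0.19 (CDC45) to 0.054 (CCNE1). For CDC45, 10 of 20 neighbours fell and 0 rose. The neighbours of CCNE2 had a median of -0.0022 and those of MCM3 one of -0.038. AURKA, TPX2 and MYBL2, which are among the 6 mitotic genes that rose, lie on chromosome 20. Of the 212 other genes between TPX2 and AURKA, 26.4% rose and 14.6% fell, with a median of 0.013. BIRC5 was the exception among called members, with a fold change (0.19) below its neighbour median of 0.25 and 11 of 20 neighbours higher. The other 16 called members went past their neighbour median in their own direction; since called members were chosen for their change, this count is a description. Of the 17, 13 had the sign of their neighbour median. TYMS lies near the end of chromosome 18, and its 15 available neighbours had a median of 0.53, with 9 of them higher.

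**Figure D5:**
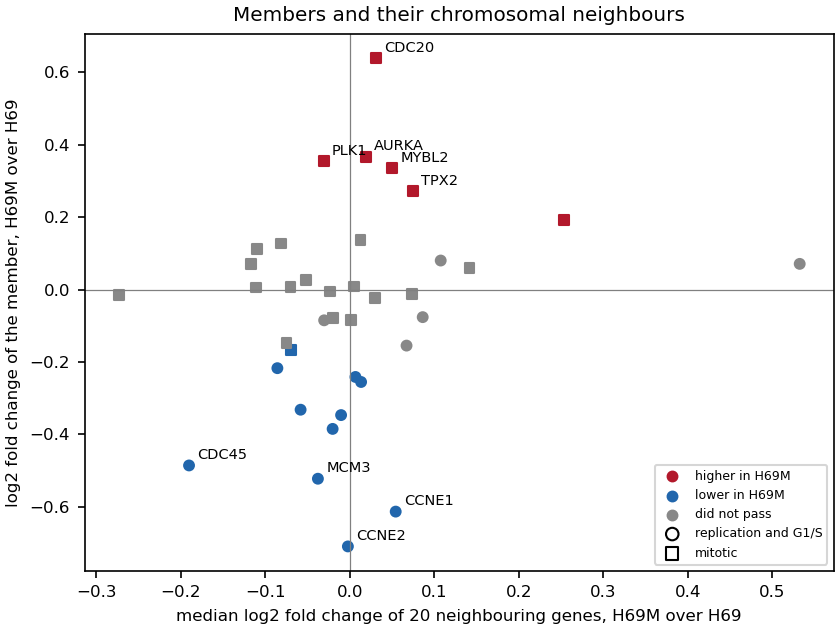
Log2 fold change of each member, H69M over H69, against the median of up to 20 neighbouring genes (circles, replication and G1/S; squares, mitotic). CDC20, CCNE1, CCNE2 and MCM3 lie far from 0 on the vertical axis with neighbour medians between -0.038 and 0.054.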

How the data were processed

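Total RNA of 6 samples, 3 labelled H69M and 3 labelled H69, was amplified and labelled with biotin for Affymetrix whole-transcript arrays, per the labels' protocols. The authors deposited 1 log2 value per probe set and array. RMA and limma stand in the submitters' processing notes with no version, and the software that ran RMA is not given in the sources used here. RMA as usually run compresses fold changes of dim genes.

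Of 32321 probe sets, 19158 had 1 gene symbol in the platform annotation, 1388 had several and 11775 were not listed; the brightest probe set stood for each of 18404 genes. H69M was compared with H69 with limma 3.58.1 in R 4.3.3 (lmFit, eBayes, two-sided), with group as the only term and Benjamini-Hochberg adjustment over all genes. Standard errors had a median of 0.075. The fit was tested on simulated data with independent errors, in which far fewer genes changed than were called here. That test checks the code and cannot vouch for the calls. All 39 members are named, and of each other list up to 3 genes past the threshold with the largest change, plus 5 fixed genes (MYC, MYCN, RB1, CDKN1A and CDKN1B). Levels are compared within a gene only, apart from a filter on the mean level. The members and lists were chosen with earlier results of these data known. The labels do not say that replicates were separate cultures, so p-values measure the spread between arrays, whose number limits the precision. Lists, promoters and plots were made in Python 3.11.15 (pandas 2.3.3, matplotlib 3.10.9).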

Additional observations from a re-analysis of the deposited data

How the results depend on the processing

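Of the 17 members called, 13 kept their call and direction under all 16 refits: MCM3, MCM4, MCM5, MCM7, CDC6, CDC45, CCNE1, CCNE2, PLK1, AURKA, CDC20, TPX2 and MYBL2. Each of these 13 has 1 probe set, so the refits on the mean or the lowest probe set left their values unchanged. With each array left out in turn, 5 to 6 members rose and 8 to 10 fell; the replication and G1/S genes had 8 to 10 falls and 0 rises, and its median ran from -0.29 to -0.25, while the mitotic genes had 0 falls each time. The lower mitotic count was 3 after median centring and 2 with eBayes trend or with the genes below the 25th percentile or the median left out. Centring gave medians of -0.35 for replication and G1/S and -0.064 for mitotic genes, and quantile normalization applied again -0.31 and -0.0072. The medians of all genes were then -0.13 with centring and -0.082 with quantile normalization. Requiring a log2 fold change of 0.5 left 1 member higher, CDC20, and 3 lower, all replication and G1/S genes, and so 1 mitotic gene higher and 0 lower. Without E2F1, FOXM1 and MYBL2, 5 mitotic genes were higher and 1 lower. The medians were then -0.29 for replication and G1/S and 0.0082 for mitotic genes. With CCNA2 and TOP2A counted among the replication and G1/S genes, the medians were -0.24 and 0.026. Same-numbered arrays did not deviate together over all genes (r of 0.0072 to 0.021). This cannot show whether they were prepared together, and the labels do not say. With the replicate number as a block the lower mitotic count was 0 and the calls of MCM2 (limma adjusted p = 0.0534), BUB1B (0.084) and BIRC5 (0.0679) were lost. Members that did not pass changed sign under centring: RRM2 (-0.0098), TYMS (-0.019), CCNA2 (-0.030), AURKB (-0.018), BUB1 (-0.082), KIF11 (-0.082), KIF20A (-0.084) and FOXM1 (-0.064). So did BUB1 (-0.012), KIF11 (-0.022), KIF20A (-0.021) and FOXM1 (-0.0072) with quantile normalization, and KIF20A (-0.0028) with array weights. With single arrays left out, members that did not pass and changed sign ranged from -0.027 to 0.0016 (CCNB1), -0.0078 to 0.028 (BUB1), -0.020 to 0.034 (KIF11), -0.033 to 0.032 (KIF20A), -0.043 to 0.014 (MKI67), -0.027 to 0.021 (TOP2A) and -0.016 to 0.047 (FOXM1), and RB1 from -0.066 to 0.049. The cause of these shifts was not tested.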

Other observations

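Of 17 measured genes of quiescence and cell cycle exit, 5 rose (29.4%) and 7 fell (41.2%), against 21% and 23.2% of all genes. CDKN1A, described above, had the largest fall. CDKN2B, which encodes the CDK4 and CDK6 inhibitor p15, had 8.12, 8.33 and 8.19 in H69M and 7.48, 7.45 and 7.10 in H69, and rose by 0.87 ± 0.11 (log2, SE, limma adjusted p = 0.000401). TXNIP, a thioredoxin-binding protein often raised in resting cells, had 11.17, 11.20 and 10.88 in H69M and 10.37, 10.34 and 10.19 in H69, and rose by 0.78.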
